A study of Homo sapiens with 16 samples.

Results

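The transcripts described here are those of 8 SOX transcription factors, SOX4, SOX11, SOX12, SOX2, SOX5, SOX6, SOX9 and SOX13. They were taken by symbol from a table of raw counts for 58787 Ensembl genes, and all 8 matched 1 identifier each. SOX4 was singled out because earlier work on these libraries had shown it higher under 1 siRNA (si47) than in the control and than under the other two siRNAs. Its levels and fold changes are therefore given as a description, with no test. Where SOX4 enters a count of genes that passed, that entry is a description too. The other 7 were listed by family with those results known, and no value served as a threshold. The libraries come from IMR32, a human neuroblastoma cell line with amplified MYCN that was profiled as 1 line. Cells received 1 of 3 siRNAs against TPX2 (si45, si46 or si47), which encodes a spindle protein that activates the kinase AURKA, or a non-targeting siRNA (siNTC). Every group thus underwent transfection with an siRNA, and the column headers of the table carry 48 h. There were 4 replicates per group, called biological in the series' design text, and 16 libraries in all.

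SOX proteins bind DNA through a conserved HMG box, which inserts into the minor groove and bends the helix. SOX4, SOX11 and SOX12 form the SOXC group, activators found in immature neurons and in the sympathetic lineage, with SOX11 a member of the transcription factor circuit of adrenergic neuroblastoma. SOX2 (group B1) maintains neural progenitors, SOX9 (group E) acts in neural crest and glial cells, and SOX5, SOX6 and SOX13 (group D) lack an activation domain of their own and act through partners.

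All 8 members encode the peptide RPMNAFMVW at the start of the HMG box, and the windows were located by a search for it. Their likeness was thus fixed in advance. The DNA of each window is within 4 bases of SOX4, and every difference leaves the peptide unchanged. The windows below hold 27 coding bases each, found by translating the GENCODE v29 transcripts on GRCh38, and are printed 5′ to 3′ on the coding strand with capitals where a base differs from SOX4. They are shown for the SOXC genes, which the comparison turns on, for SOX5, which passed the test described further on, and for SOX9, the member nearest to SOX4 in this window.
SOX4, chr6:21594715-21594741, plus strand: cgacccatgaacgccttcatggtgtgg
SOX11, chr2:5692872-5692898, plus strand: cgGccGatgaacgcGttcatggtAtgg
SOX12, chr20:326048-326074, plus strand: AgGccGatgaacgcAttcatggtgtgg
SOX5, chr12:23543284-23543310, minus strand: cgTccAatgaaTgccttcatggtgtgg
SOX9, chr17:72121710-72121736, plus strand: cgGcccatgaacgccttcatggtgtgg
SOX11 and SOX12 differed from SOX4 at 4 of the 27 bases each, as did SOX6. SOX5 differed at 3, SOX2 and SOX13 at 2, and SOX9 at 1. These are differences in codon choice for the same peptide and give no ranking of relatedness. Outside the box the transcripts diverge. The SOX4 transcript (5852 bases, a single exon at chromosome 6, 21592768 to 21598619) shared 6 words of 25 bases with SOX11 and 14 with SOX12. The last 1000 bases of each of the 3 transcripts, where reads of a 3' end library mostly fall, held 0 such words of the other two.

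Each library held 5318159 to 7864343 counts, and 14193 genes passed the low-count filter and were tested. TPX2 stood at 327 ± 27.1 CPM in siNTC (CPM, read counts relative to the normalised size of the library; mean ± SD, n = 4), and at 28.0%, 24.9% and 21.8% of that level under si45, si46 and si47 (two-sided exact permutation p = 0.0286 for each, the smallest that 4 against 4 libraries allow). In the 3' end kit used here a transcript gives about 1 read whatever its length, so CPM was compared between genes without division by length. 6 of the 8 SOX genes passed the filter, and SOX6 and SOX13 did not. In bulk RNA of a culture, a large change in few cells and a small change in all cells cannot be told apart.

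In the control cells SOX11 and SOX4 were by far the most abundant of the 8. SOX11 was at 1022 ± 96.4 CPM (SD, n = 4), SOX4 at 941 ± 61.5, SOX12 at 237 ± 21.4, SOX9 at 26.8 ± 2.91, SOX5 at 11.6 ± 2.77 and SOX2 at 10.9 ± 2.93. The ranges of SOX11 (925 to 1111) and SOX4 (853 to 989) overlapped, as did those of SOX5 (9.08 to 15.2) and SOX2 (8.33 to 14.6). SOX13 (0 to 13 counts) and SOX6 (0 to 2 counts) closed the list and overlapped as well. The other neighbours in this order were apart in every control library.

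On average SOX4 rose in steps from the control through si45 and si46 to si47, although the si45 and si46 libraries overlapped. The siNTC libraries held 979, 853, 945 and 989 CPM in replicates 1 to 4. Under si45 the values were 1158, 1129, 1126 and 1125 CPM, under si46 1221, 1364, 1115 and 1297, and under si47 1743, 1727, 1546 and 1852. All 12 knockdown libraries lay above all 4 controls, and all si47 libraries lay above every other library. Such a separation of all 12 libraries upwards was seen in 1.49% of the tested genes. Nothing is read from this for SOX4, whose selection used the same libraries. The log2 fold changes were 0.27 (SE 0.08, 95% interval 0.11 to 0.43), 0.41 (SE 0.08, 0.25 to 0.57) and 0.87 (SE 0.0804, 0.70 to 1.03) for si45, si46 and si47, which is 1.21, 1.33 and 1.82 times the control. Between siRNAs, SOX4 under si47 exceeded si45 by 0.60 (0.44 to 0.76) and si46 by 0.46 (0.30 to 0.62) on the log2 scale, and si46 exceeded si45 by 0.14 (-0.02 to 0.30). The TPX2 that remained was on average lowest in si47 as well (71.5 ± 3.37 CPM, against 91.6 ± 19.8 in si45 and 81.7 ± 14.3 in si46). The lowest single library was si46 replicate 4 (62.2 CPM), below the si47 range of 68.7 to 76.3 CPM. The part of TPX2 in the order of SOX4 was not tested. The gene shares 168 exonic bases with an antisense transcript that had 2 counts over all libraries.

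**Figure D1:**
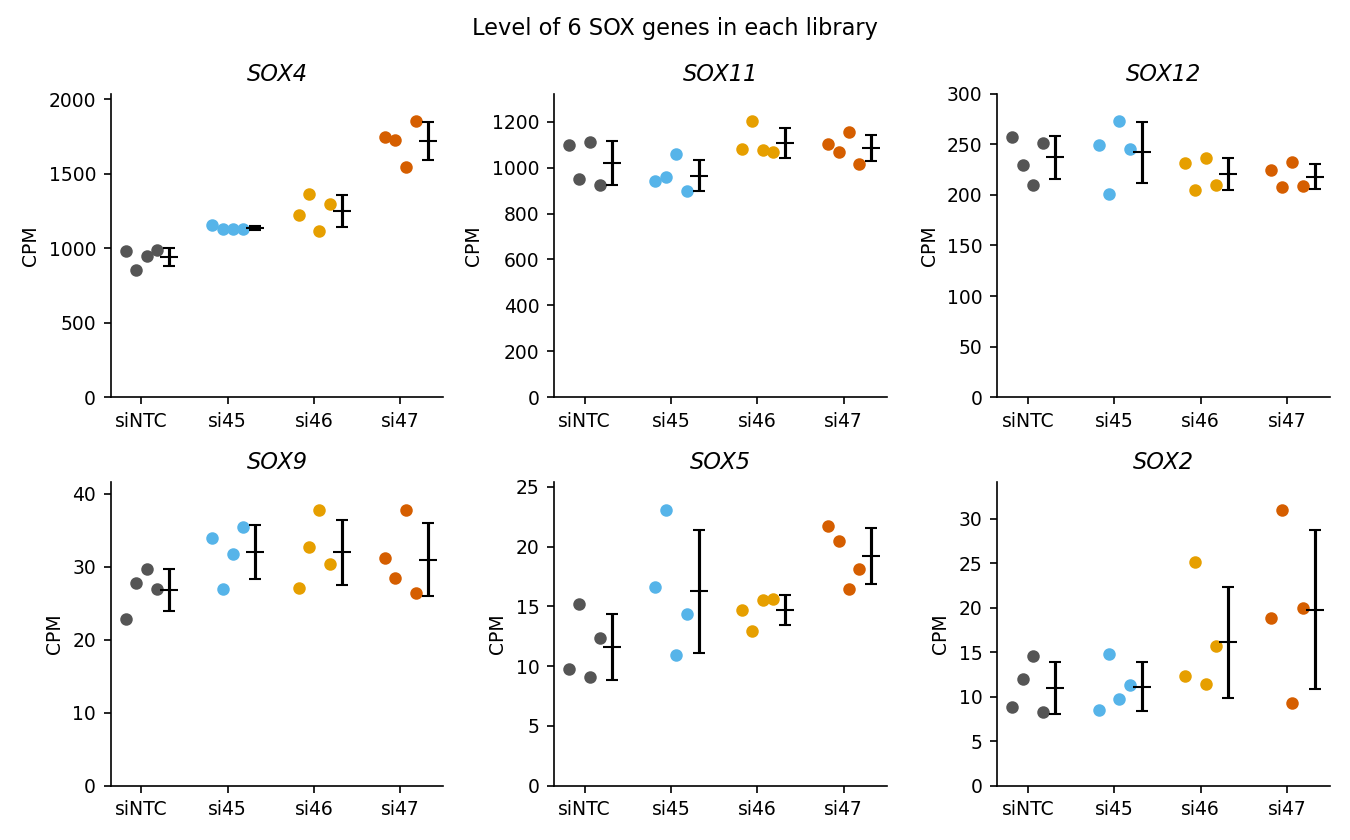
Level in CPM (vertical axis, from 0) of the 6 SOX genes that passed the low-count filter, in each of the 4 libraries of siNTC, si45, si46 and si47. Dots are libraries, and the bar to their right is the mean with 1 SD; the si47 libraries of SOX4 (1546 to 1852 CPM) sit above all others, while the SOX11 and SOX12 groups overlap.

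SOX11 and SOX12, its closest relatives, did not pass the test under any siRNA. SOX11 was at 1098, 952, 1111 and 925 CPM in the siNTC libraries and at 1103, 1069, 1154 and 1017 under si47. The si45 libraries held 941, 959, 1059 and 899.8 CPM and the si46 libraries 1083, 1203, 1075 and 1069. All groups overlapped with the control. Its log2 fold changes were -0.08 (95% interval -0.25 to 0.08), 0.12 (-0.05 to 0.28) and 0.09 (-0.08 to 0.25) under si45, si46 and si47, and none passed (edgeR adjusted p = 0.774, 0.557 and 0.563). The si47 interval of SOX11 ends at 0.25, and that of SOX4 begins at 0.70. SOX4 was chosen for its rise in these libraries, so this gap is a description and no test of a difference. SOX11 shares 74 exonic bases with a transcript on its own strand that had 108 counts over all libraries.

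SOX12, the least abundant SOXC gene, was at 257, 229.6, 210 and 251 CPM in siNTC and at 224, 207, 232 and 208 under si47. The si45 libraries ranged from 201 to 273 CPM and the si46 libraries from 205 to 236. The groups overlapped. Its log2 fold changes were 0.03 (-0.15 to 0.22), -0.10 (-0.29 to 0.08) and -0.12 (-0.30 to 0.07), with edgeR adjusted p of 0.942, 0.667 and 0.461 for si45, si46 and si47. The log2 ratio of SOX11 to SOX12 counts was 2.11 ± 0.217 in siNTC (SD, n = 4) and differed from it by -0.11, 0.22 and 0.21 in si45, si46 and si47. None of these differences passed (two-sided exact permutation p = 0.486, 0.171 and 0.143, adjusted over the 3 tests 0.486, 0.256 and 0.256). Without siNTC replicate 3 the si47 difference was 0.31 (unadjusted exact permutation p = 0.0286), and without any other library its unadjusted p was 0.143 to 0.257.

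**Figure D2:**
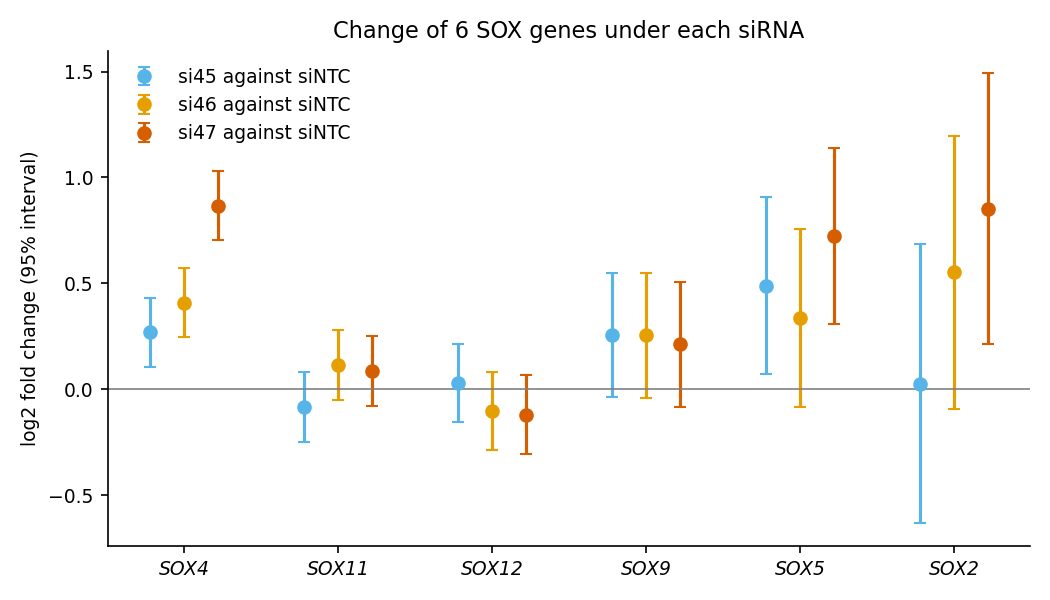
Log2 fold change against siNTC (vertical axis) of 6 SOX genes under si45, si46 and si47, with 95% intervals from the fit over 14193 genes. The 3 SOX4 values step up from 0.27 to 0.87, those of SOX11 and SOX12 lie within 0.12 of 0, and the intervals of SOX5 and SOX2 are wide.

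Within the SOXC group, SOX4 held a larger part under each siRNA. SOX4 held 41.7% to 45.7% of the summed counts of the 3 genes in the siNTC libraries, 45.8% to 49.6% in si45, 45.96% to 50.4% in si46 and 52.7% to 60.2% in si47. SOX11 outnumbered SOX4 in 3 of 4 control libraries, whereas SOX4 outnumbered SOX11 in 4 of 4 libraries under each siRNA. The mean share of SOX11 went from 46.4% in siNTC to 36.0% in si47 and that of SOX12 from 10.8% to 7.23%, although neither gene passed the test. Summed over the 3 genes, the level was 2200 ± 130 CPM in siNTC and 2341 ± 84.6, 2577 ± 144 and 3021 ± 67.7 CPM in si45, si46 and si47 (SD, n = 4). The log2 ratio of SOX4 to SOX11 was higher than in siNTC by 0.35, 0.29 and 0.78, and that of SOX4 to SOX12 by 0.24, 0.51 and 0.98. These shares and ratios contain SOX4 and carry no test.

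**Figure D3:**
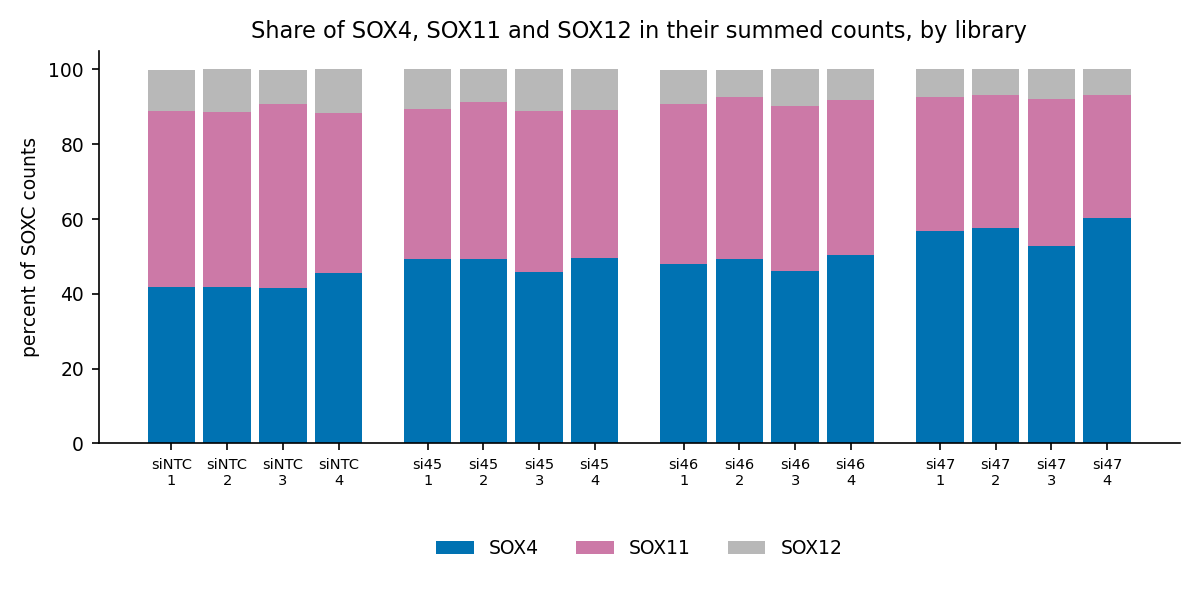
Percent of the summed counts of SOX4, SOX11 and SOX12 (vertical axis) that each gene held, 1 bar per library, ordered by siRNA and replicate. The SOX4 part is 41.7% to 45.7% in the siNTC bars and 52.7% to 60.2% in the si47 bars.

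Among the less abundant members, SOX5 rose under si47. SOX5, which binds the same DNA motif as other SOX proteins without activating by itself, was at 9.78, 15.2, 9.08 and 12.3 CPM in siNTC (48 to 97 counts) and at 21.7, 20.5, 16.5 and 18.1 under si47. All 4 si47 libraries lay above all controls, which 7.41% of tested genes showed. The log2 fold change under si47 was 0.72 (SE 0.204, 95% interval 0.31 to 1.14, edgeR adjusted p = 0.019). The si45 libraries held 16.6, 23.1, 10.9 and 14.4 CPM and the si46 libraries 14.7, 12.9, 15.5 and 15.7, both overlapping the control, with 0.49 (adjusted p = 0.33) and 0.34 (adjusted p = 0.481). The si47 call rests on few counts. It was lost without siNTC replicate 1 or 3 (adjusted p = 0.0714 and 0.0741) and without si47 replicate 1 or 2 (0.069 and 0.0528), and over all libraries left out in turn the fold change stayed between 0.63 and 0.89. The difference in SOX5 between si47 and si45 (0.23, -0.17 to 0.64) or si46 (0.39, -0.02 to 0.79) did not pass (adjusted p = 0.731 and 0.706).

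SOX2 did not pass under any siRNA. The siNTC libraries held 8.82, 12.0, 14.6 and 8.33 CPM and the si45 libraries 8.54, 14.8, 9.71 and 11.4. Under si46 the values were 12.3, 25.1, 11.45 and 15.7 CPM and under si47 18.9, 31.0, 9.24 and 19.98. Replicate 3 of si47 lay within the control range and the other 3 si47 libraries above it. The log2 fold change under si47 was 0.85 (SE 0.306, 0.22 to 1.49) and did not pass (edgeR adjusted p = 0.0869). It passed without si47 replicate 3 (1.09, adjusted p = 0.0043) or without si46 replicate 2 (0.85, 0.0401). The values for si45 and si46 were 0.03 (-0.63 to 0.69, adjusted p = 0.989) and 0.55 (-0.09 to 1.198, adjusted p = 0.43). Between si47 and si45 SOX2 differed by 0.83 (adjusted p = 0.307). With the replicate number as a block, that difference was 0.80 and passed (edgeR adjusted p = 0.0254). The block was fitted over all groups. The main fit had no such block. Deviations of same-numbered libraries from their group means correlated positively for every pair of groups, with r of 0.202 to 0.396 for si45 with si47. With siNTC the r was 0.0884 to 0.317 for si45 and 0.0171 to 0.184 for si47. No label ties the numbers. SOX2 lies within the transcript SOX2-OT on the same strand but shares 0 exonic bases with it, and SOX2-OT had 0 to 8 counts per library.

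SOX9 did not pass under any siRNA. It was at 22.8, 27.7, 29.7 and 26.9 CPM in siNTC. The 12 knockdown libraries ranged from 26.4 to 37.8 CPM, and 8 of them lay above all controls. Its log2 fold changes of 0.26 (-0.04 to 0.55), 0.26 (-0.04 to 0.55) and 0.21 (-0.08 to 0.51) did not pass (edgeR adjusted p = 0.528, 0.427 and 0.4 for si45, si46 and si47). A rise of up to 0.55 on the log2 scale is within these intervals.

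SOX6 and SOX13, both partners of SOX5 in group D, were too low to test. SOX6 had 0 to 3 counts per library and 0 counts in 7 of 16, and SOX13 had 0 to 13 counts and 0 in 2 of 16. SOX6 also shares 219 exonic bases with C11orf58 on the opposite strand, a gene with 26775 counts. Among 11 further SOX genes, SOX1, SOX3, SOX10, SOX14, SOX17, SOX21 and SOX30 had 0 counts in all 16 libraries, which allows up to 0.564 CPM in the shallowest library for counting error alone. SOX15 and SOX18 had at most 7 counts. SOX7 (10.8 ± 3.17 CPM in siNTC, SD, n = 4) and SOX8 (3.74 ± 1.28 CPM) passed the filter. Of these 2, 0 passed the test under any siRNA (edgeR; 0 at an unadjusted p under 0.05 under si47, and 0 by DESeq2 or limma-voom). Of all tested genes 1.34%, 3.4% and 9.74% passed under si45, si46 and si47, so 0 of 2 says little. Their 95% intervals were wide, such as -1.22 to 0.38 for SOX8 under si45 and -0.94 to 0.12 for SOX7 under si46.

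SOX4 was chosen for its rise in these libraries, so its part in the counts below is a description and no test. By count, 0 of the 6 tested SOX genes passed an adjusted p under 0.05 under si45, against 1.34% of all tested genes (1.01% higher, 0.324% lower). SOX5 had an unadjusted edgeR p of 0.0234 there. DESeq2 called 1, which was SOX4, and limma-voom 0. Under si46 1 of 6 was higher (SOX4), against 3.4% of all genes (2.14% higher, 1.25% lower). Under si47 2 of 6 were higher (SOX4 and SOX5), against 9.74% of all genes (4.91% higher, 4.83% lower), and DESeq2 called 3 and limma-voom 2. For the 3 siRNAs averaged, 1 of 6 was higher (SOX4), against 7.14% of all genes (3.61% higher, 3.53% lower). Between siRNAs, SOX4 was the 1 of 6 higher under si47 than under si45, where 0.169% of all genes passed (0.0705% higher, 0.0986% lower). It was also the 1 of 6 higher under si47 than under si46, where 0.0493% of all genes passed (0.0211% higher, 0.0282% lower). Without si46 replicate 3 the latter count was 0. SOX4 was picked for these differences, so its calls were fixed in advance and cannot be weighed against the shares of all genes. From si45 to si46 0 of 6 differed in edgeR, against 0.0282% of all genes (0.0141% higher, 0.0141% lower), with 1 at an unadjusted p under 0.05 (SOX11) and 0 by DESeq2 or limma-voom. The median log2 fold change of the 6, SOX4 included, was 0.14, 0.30 and 0.47 under si45, si46 and si47. Over all tested genes the median was within 0.00432 of 0. With SOX4 set aside, the middle value of the rest was 0.03 (SOX12), 0.26 (SOX9) and 0.21 (SOX9). Those remaining values ran from -0.12 (SOX12) to 0.85 (SOX2) under si47. All these counts and the medians of the 6 include SOX4, which was chosen for its rise, so nothing is read from its part in them.

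The genes whose levels ran closest to SOX4 over the 16 libraries were FBXW7, GADD45A, MKRN1 and M6PR, among 9678 other genes with a mean of at least 50 counts. Pearson's r of log2 CPM was 0.929, 0.926, 0.913 and 0.900. CARM1 and BRCA2 were the most opposed (r = -0.938 and -0.933). The libraries share the 4 groups, so the r reflects the steps between siRNAs. After removal of the group means it was 0.867 for GADD45A, 0.562 for MKRN1, 0.546 for FBXW7, 0.351 for M6PR, -0.71 for CARM1 and -0.637 for BRCA2. These genes were picked for their likeness, and their values are a description.

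GADD45A, a stress-induced regulator of growth arrest and a known p53 target, went from 79.7 ± 9.29 CPM in siNTC to 132 ± 13.8, 160 ± 39.3 and 205 ± 37.8 CPM in si45, si46 and si47 (SD, n = 4). FBXW7, the substrate adaptor of a ubiquitin ligase, went from 132 ± 14.8 CPM to 172 ± 9.13, 192 ± 11.4 and 236 ± 29.1 CPM. BRCA2, which acts in homologous recombination, went from 113 ± 9.71 CPM to 98.7 ± 5.9, 83.4 ± 13.2 and 60.97 CPM, and CARM1, an arginine methyltransferase, from 277 ± 12.5 to 249.6 ± 12.7, 225 ± 18.8 and 192 ± 23.4 CPM. All 12 knockdown libraries lay above all controls for FBXW7, GADD45A and M6PR and 11 for MKRN1, and 10 lay below for BRCA2 and for CARM1. Of all tested genes 1.49% had all 12 above. Nothing is read from these counts, since the genes were picked for their likeness to SOX4.

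**Figure D4:**
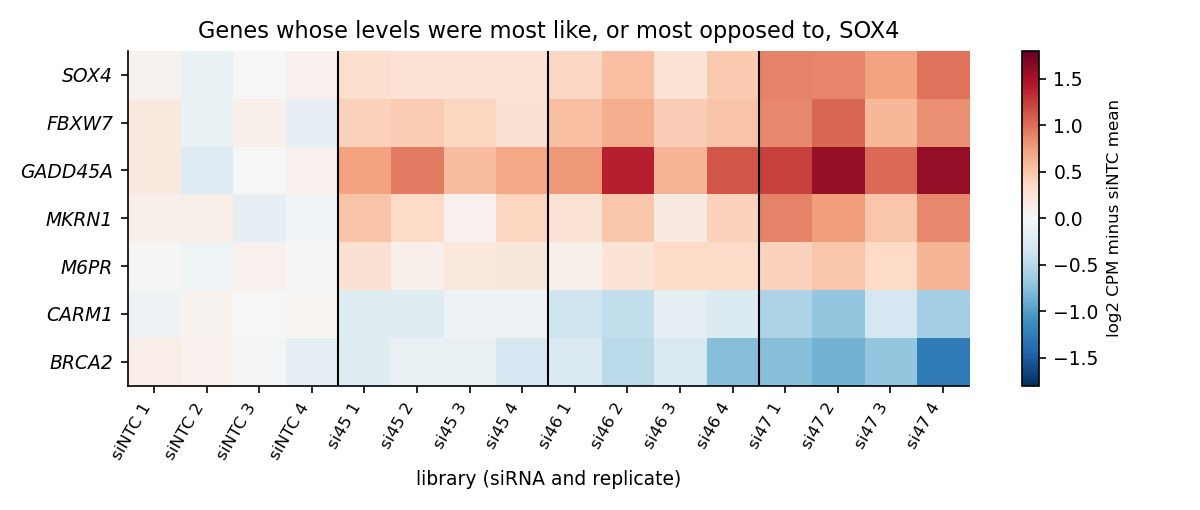
Log2 CPM minus the siNTC mean (colour, red higher and blue lower) of SOX4, the 4 genes most like it and the 2 most opposed, in each of 16 libraries (columns, grouped by siRNA). The red of SOX4, FBXW7 and GADD45A deepens from si45 to si47, and the blue of CARM1 and BRCA2 does so in parallel.

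Other genes ran closest to SOX11. They were picked for their likeness among 9678 genes, so their values are a description. How high r runs for the best of so many unrelated genes was not tested. RNVU1-2A, NHLH2, COPE and MIDN ran closest to it (r = 0.81, 0.805, 0.805 and 0.803 over 16 libraries; 0.721, 0.787, 0.878 and 0.837 after removal of group means), and EXOSC8 and SLC16A1 were the most opposed (-0.869 and -0.857; -0.908 and -0.805). NHLH2 is a neuronal basic helix-loop-helix factor. It was at 263.5 ± 21.7 CPM in siNTC and 304.5 ± 34.7 in si47 (SD, n = 4), groups that overlapped.

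Of 8 genes known as targets of SOXC factors, 7 were tested. Under si47 1 was higher and 1 lower, with a median log2 fold change of -0.13 (9.74% of all tested genes changed). DCX, a microtubule protein of migrating neurons, was at 193 ± 16.6 CPM in siNTC and 234 ± 19.1 under si47, a log2 fold change of 0.28 (SE 0.0888, edgeR adjusted p = 0.0429). DCX was also higher under si47 than under si45 by 0.43 (adjusted p = 0.0267). The si47 call of DCX was lost without any of siNTC replicates 1, 2 and 3, si45 replicate 4 and si47 replicates 1 and 4 (adjusted p = 0.0508 to 0.174), with no low-count filter (0.0586) and with only these groups fitted (0.0518). The difference from si45 was lost without any of si45 replicates 2, 3 and 4 and si47 replicates 1 and 4 (0.0548 to 0.145) and with only these groups fitted (0.086). EZH2, the methyltransferase of Polycomb complex 2, fell from 252 ± 13.9 CPM to 186 ± 11.9 under si46 and 183 ± 16.6 under si47, log2 fold changes of -0.44 and -0.46 (edgeR adjusted p = 0.00173 and 0.000399). All 12 knockdown libraries were below all controls for EZH2, as were 1.03% of tested genes. MAP2, NEUROD1, TEAD2, PDGFA and PAX5 did not pass under any siRNA. TUBB3 had 25 counts over all 16 libraries, and it shares 1584 exonic bases on its own strand with a gene that had 0.

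Of 16 partners and regulators of SOX proteins 12 were tested, and under each siRNA 2 were higher, FBXW7 and MDM2, against 1.01%, 2.14% and 4.91% of all tested genes under si45, si46 and si47. FBXW7, whose ligase is known to degrade SOX9, rose by 0.38, 0.53 and 0.83 on the log2 scale (edgeR adjusted p = 0.0272, 0.000505 and 1.25e-07). Its si45 call was lost without siNTC replicate 2 or 4 or si45 replicate 1 or 2 (0.0809 to 0.149). FBXW7 also exceeded si45 under si47, by 0.45 (adjusted p = 0.0242; 0.0539 to 0.123 without si45 replicate 3 or 4 or si47 replicate 1, 2 or 4, and 0.08 with only these groups fitted). MDM2, the ubiquitin ligase of p53, rose by 1.03, 1.203 and 1.53 (adjusted p = 0.000174, 2.14e-05 and 3e-07). Its difference between si47 and si45 was 0.51 (adjusted p = 0.123; 3.62e-05 with the replicate block). TCF7L2, a transcription factor of the WNT pathway that SOX proteins bind, fell by 0.58 under si46 and by 0.46 under si47 (adjusted p = 0.0104 and 0.0252). TCF7L2 lost the si47 call without siNTC replicate 1, 2 or 4 or si47 replicate 1 (0.051 to 0.128). The POU partners of SOX2 were low or did not pass: POU3F1 had 11 to 45 counts per library, POU3F2 0 to 17, and POU3F4 0 in all 16.

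TGF-beta is a known inducer of SOX4. Of 9 genes of that input, TGFBR2 had 0 counts in all 16 libraries and 8 were tested. In edgeR 0 of 8 passed under si45, si46 or si47, where 1.34%, 3.4% and 9.74% of all tested genes did, and 1, 3 and 1 had an unadjusted p under 0.05. DESeq2 called 1 under si45, 0 under si46 and 0 under si47, and limma-voom called 0 under each. For the siRNAs averaged, edgeR called 0 (3 at an unadjusted p under 0.05), DESeq2 1 and limma-voom 0. The median log2 fold change under si47 was 0.02. SMAD7, an inhibitor of the pathway that is named here after its values were seen, was at 16.35 ± 2.33 CPM in siNTC and 24.3 ± 3.32 under si45 (SD, n = 4), a log2 difference of 0.57 (edgeR adjusted p = 0.0711). Its level was above all controls in 11 of 12 knockdown libraries.

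**Figure D5:**
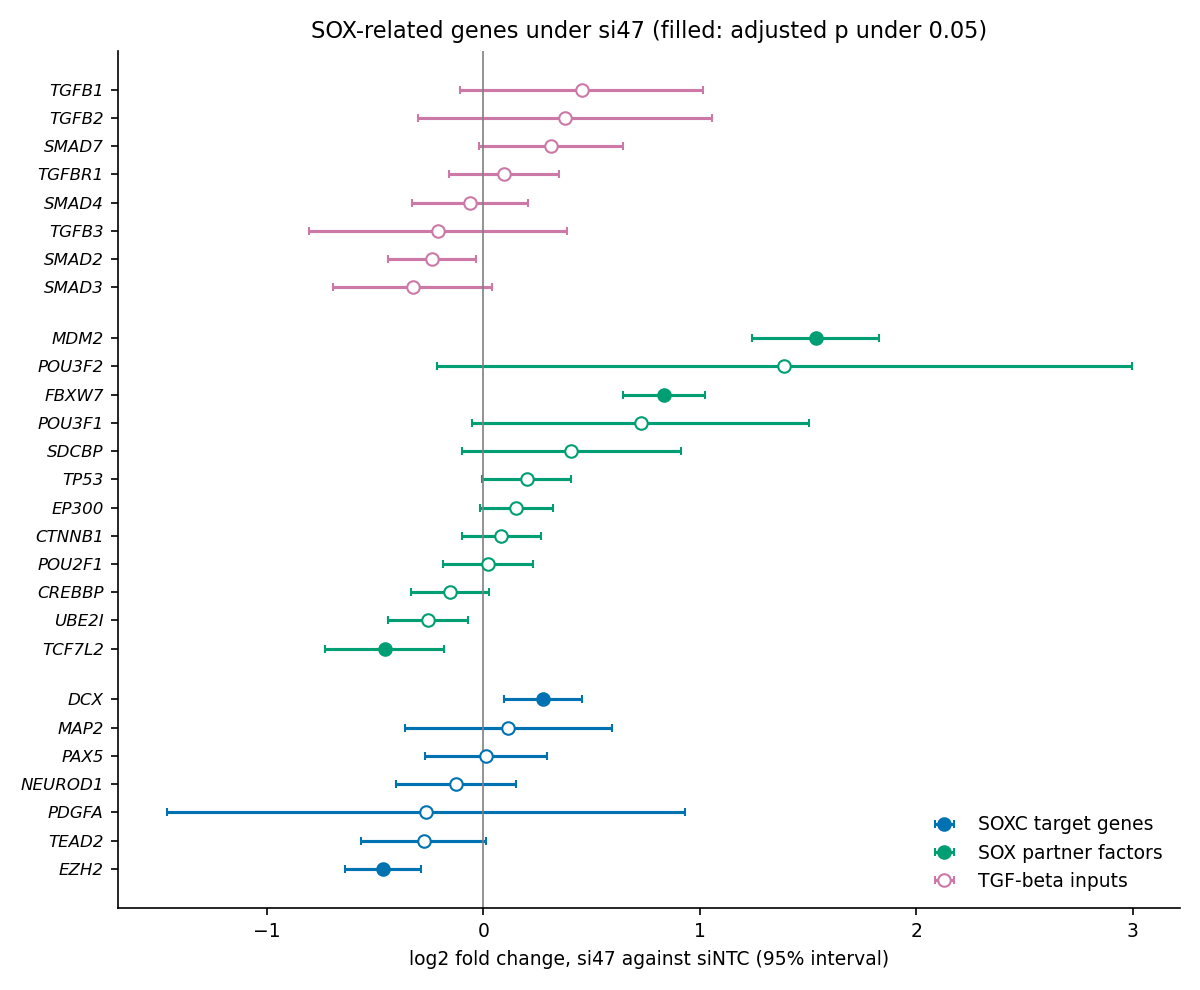
Log2 fold change under si47 against siNTC (horizontal axis) with 95% intervals, for the tested SOXC target genes, SOX partner factors and TGF-beta input genes. Filled dots passed an adjusted p under 0.05: MDM2, FBXW7 and DCX to the right of 0, TCF7L2 and EZH2 to the left.

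Of 17 neighbours and overlapping transcripts of the SOX genes found in the table, 7 were tested. Under si47 0 were higher and 1 was lower in edgeR (4.91% and 4.83% of all genes), 3 had an unadjusted p under 0.05, and DESeq2 and limma-voom called 2 each. CASC15, a long non-coding RNA that starts 66153 bases beyond the end of SOX4, was at 14.4 ± 3.13 CPM in siNTC and 15.4 ± 2.45, 18.4 ± 1.51 and 20.01 ± 3.44 CPM in si45, si46 and si47 (SD, n = 4). Its log2 fold change under si47 was 0.48 (95% interval 0.10 to 0.85, edgeR adjusted p = 0.0987). CASC15 shares 227 exonic bases with NBAT1 on the opposite strand, which had 0 to 11 counts per library. Farther off on the same chromosome, CDKAL1 stood at 34.1 ± 1.91 CPM in siNTC and 33.6 ± 3.79 under si47. E2F3, an activator of S phase genes, fell by 0.35 under si47 (edgeR adjusted p = 0.00987; 0.0724 without si47 replicate 2), from 171 ± 2.67 to 134 ± 16.1 CPM. Next to other members, NRSN2, NRSN2-AS1 and ETNK2 did not pass under any siRNA.

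Markers of the adrenergic state of neuroblastoma were present in every group. 14 of 15 adrenergic markers were tested, TFAP2B being too low (1 to 12 counts). Their summed level was 5968 to 6360 CPM in the siNTC libraries, 6325 to 6886 in si45, 6596 to 7115 in si46 and 6814 to 7237 in si47. The si46 and si47 sums thus lay above all controls, as did SOX4, and the part of this shift in the SOX levels was not tested. For the 3 siRNAs averaged, 3 adrenergic markers were higher and 1 lower, where 7.14% of all genes passed. DBH fell by 0.56 (edgeR adjusted p = 1.27e-05), TBX2 rose by 0.33 (0.00378) and HAND2 rose by 0.23 (0.0193; 0.10 and 0.0728 without siNTC replicate 1 or 3). Of 16 mesenchymal markers 9 were tested. In edgeR 0 passed under si45, si46 or si47 (1.34%, 3.4% and 9.74% of all genes), with 1 at an unadjusted p under 0.05 under each. DESeq2 called 1 under si46 and 0 under si45 and si47, and limma-voom called 0 under each. Their summed level was 516 to 593 CPM in the siNTC libraries, 575 to 666 in si45, 537 to 658 in si46 and 514 to 621 in si47. VIM, an intermediate filament gene also named after its values were seen, lay above all controls in 4 of 4 si45, 3 of 4 si46 and 2 of 4 si47 libraries, with log2 differences of 0.26, 0.31 and 0.06 (edgeR adjusted p = 0.198, 0.0516 and 0.737). The part of these levels in the SOX results was not tested. PRRX1, which defines the mesenchymal state, had 1 count in 1 of 16 libraries. SOX10, which defines Schwann and neural crest cells, was at 0 in all 16 libraries.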

How the data were processed

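RNA of IMR32 cells was sequenced from Lexogen QuantSeq 3' end libraries (15 PCR cycles, single-end reads), per the labels' protocols. The authors deposited raw read counts for 58787 genes, not normalized. The submitters' processing notes name FastQC 0.11.7, STAR 2.7.2b, edgeR 3.36.0, limma 3.50.3 and GRCh38, with no role for each. The counter, annotation, strand setting and treatment of PCR duplicates are not given in the sources used here, so intervals and floors cover counting error only, and overlapping genes may share or lose reads. All 16 columns were used, and 0 were left out.

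Symbols matched 58434 identifiers. Counts were kept by filterByExpr (minimum count 10, minimum total 15), scaled by TMM and fitted with edgeR 4.0.16 in R 4.3.3 as 1 robust quasi-likelihood model of 4 group means, with Benjamini-Hochberg adjustment over 14193 genes and a threshold of 0.05. Standard errors are the fold change over the square root of F, and log2 CPM used a prior count of 2. TPX2 (log2 of CPM + 1) and SOX11 to SOX12 ratios had two-sided exact permutation tests. On simulated data with 200 genes changed by 1 on the log2 scale in si47, edgeR recovered 69.5% with 8 false calls among 13935 genes. The 24 within-group library pairs differed beyond sampling noise (chi-square per degree of freedom 4.45 to 10.3).

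Deviations of same-numbered libraries from their group means correlated positively for every pair of groups. The r was 0.202 to 0.396 for si45 with si47, 0.104 to 0.36 for si46 with si47 and 0.0898 to 0.416 for si45 with si46. With siNTC it was 0.0884 to 0.317 for si45, 0.0313 to 0.187 for si46 and 0.0171 to 0.184 for si47. This rests on the counts, since no label ties the numbers, and the main fit had no replicate block. The members, the lists and the rule for naming genes were chosen with earlier results of these data known. The rule took every SOX member, other SOX and locus transcripts past the filter, up to 3 passing genes per list with the lowest p, and the 4 most like and 2 most opposed to SOX4 and SOX11. The fits were repeated with DESeq2 1.42.0, limma-voom (limma 3.58.1), scaling by upper quartiles or by RLE, other filters, only the groups compared, a replicate block, a threshold of 0.01 and leaving out each library. Some genes of the lists are not reported here.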

Additional observations from a re-analysis of the deposited data

Results flagged for a closer look

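Among 30 groups of 4 libraries (TPX2 and the SOX genes with at least 10 counts), 3 had 1 library far from the other 3, where chance gives about 1.5. TPX2 was at 121 CPM in si45 replicate 3 against 79.4 to 85.1 in the rest of its group. SOX4 was at 1158 CPM in si45 replicate 1 against 1125 to 1129, a small gap in a tight group. SOX11 was at 1203 CPM in si46 replicate 2 against 1069 to 1083.

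SOX4 was higher under si47 than under si45 by 0.60 and than under si46 by 0.46 on the log2 scale. It was singled out for this pattern, so the values are a description and no test. DCX and FBXW7 were higher under si47 than under si45 in a direct test, by 0.43 and 0.45 (edgeR adjusted p = 0.0267 and 0.0242).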

How the results depend on the processing

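The counts below include SOX4, whose part in them is a description and no test. The number of SOX genes that passed under si45 was 0, where 190 of all genes passed. It was 1 (SOX4) with DESeq2, with no low-count filter and with the replicate block, where 292, 356 and 577 of all genes passed. Under si47 the SOX count was 2 (1382 of all genes), and 1 at an adjusted p under 0.01 (673). It was 3 with DESeq2, no low-count filter or the replicate block. In the mean contrast it was 1 (1014 of all genes), and 2 (SOX4 and SOX5) with DESeq2 (1233) and with the replicate block (1817). Between si47 and si45 it was 1 (24 of all genes), and 2 (SOX4 and SOX2) with no low-count filter (166) and with the replicate block (398). Between si47 and si46 it was 1 (7 of all genes), and 0 when only these groups were fitted (4). The calls over all genes thus moved with these settings too. Leaving out each library in turn gave 0 under si45, 1 under si46, 1 to 3 under si47, 1 to 2 in the mean contrast, 1 to 2 between si47 and si45, 0 to 1 between si47 and si46 and 0 between si46 and si45. The cause of these moves was not tested. SOX2 under si47 passed with DESeq2 (adjusted p = 0.0368), no low-count filter (0.00188) and the replicate block (0.00664). 2 values near 0 changed sign, SOX2 under si45 with the replicate block (-0.0062) and SOX9 between si46 and si45 with upper-quartile factors (0.0025). The TPX2 difference stayed between -2.22 and -1.78 over the libraries left out. The SOX11 to SOX12 difference ranged from -0.19 to -0.0094 for si45, 0.15 to 0.32 for si46 and 0.13 to 0.31 for si47, the last without siNTC replicate 3 and the one case that passed (unadjusted exact permutation p = 0.0286). The fits of list genes under these settings were added after the data were seen. Leaving out single libraries also changed the sign of small log2 fold changes, none of which passed. Against siNTC the ranges were -0.0324 to 0.118 (SOX12), -0.14 to 0.19 (SOX2) and -0.006 to 0.23 (CASC15) for si45, and -0.0055 to 0.0825 (SOX11) for the siRNAs averaged. From si45 to si47 they were -0.15 to 0.025 (SOX9), -0.139 to 0.0892 (TCF7L2) and -0.0022 to 0.0659 (HAND2). From si46 to si47 they were -0.059 to 0.0138 (SOX11), -0.0508 to 0.0196 (SOX12) and -0.154 to 0.0489 (SOX9). From si45 to si46 they were -0.30 to 0.0673 (SOX5) and -0.0943 to 0.0743 (SOX9).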
